A study of Mus musculus with 3 samples.

Results

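The genes described here are 7 regulators of tendon: the transcription factor genes Scx, Mkx, Egr1 and Egr2, and the 3 genes for the TGF-beta ligands, Tgfb1, Tgfb2 and Tgfb3. They were taken by name, as a set of known function, out of 21887 protein-coding genes on the primary chromosomes. For each, the summits of Tbx4 and of Hoxc10 were collected over a domain, which is the gene itself and the stretch to the next protein-coding gene on either side, at most 1 Mb. The summits come from ChIP-seq of hindlimb buds from wild type CD1 mouse embryos of stage e11.5, with no other allele or treatment. The Tbx4 sample used a homemade antibody and the Hoxc10 sample an Abcam antibody, each is 1 sample with 1 list, and the Hoxc10 sample with a Santa Cruz antibody was not analysed here. A bud holds mesenchyme, ectoderm, muscle precursors and vessels, and the sources used here do not say whether animals were pooled. A list cannot tell in which of these cells a site was bound.

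Scx encodes a basic helix-loop-helix factor that marks tendon progenitors from the time they form. Mkx encodes an atypical homeodomain protein needed for the collagen fibrils of tendon, and Egr1 and Egr2 encode zinc finger factors that raise tendon collagen genes. TGF-beta ligands are secreted in a latent form, bind a pair of receptor kinases and act through Smad2 and Smad3, and in limb mesenchyme they recruit and maintain Scx-positive cells. Tbx4 is a T-box factor and Hoxc10 a posterior Hox factor of the hindlimb mesenchyme from which tendon progenitors arise.

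The lists held 4780 Tbx4 and 1614 Hoxc10 summits of 1 bp on the mouse build mm10. The score beside a summit is a MACS2 value on a −log10 scale, and was ranked within its own list only. Median scores were 3.67 for Tbx4 and 7.72 for Hoxc10. There are no replicates, the read depth is unknown, and no test was made, so that every value below describes these 2 lists. Set against the highest peak number in each list, the lists hold at most 10.6% and 40.1% of the numbered peaks, and the sources used here do not say how they were selected. The name of the Hoxc10 list may mean that only summits no more than 200 bp from a Santa Cruz peak were kept, which was not checked. A count of 0 therefore means that no listed summit lay in a domain, not that a gene was unbound.

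Summits were found at Scx and Tgfb2 and at none of the other 5 genes. Tbx4 summits lay in the domains of 2 of the 7 genes, where 17.6% of all protein-coding genes had one. Hoxc10 summits lay in the domain of 1, Tgfb2, where 7.02% of all genes had one. A pair of both factors within 200 bp, called co-bound, was found in none of the 7 domains, and 2.71% of all genes had such a pair. The 5 genes with neither factor, Mkx, Egr1, Egr2, Tgfb1 and Tgfb3, stand beside 80.5% of all genes. In all, 3 Tbx4 summits and 3 Hoxc10 summits fell to these genes, or 0.0628% and 0.186% of the lists. Over so few genes these counts do not set the members apart from the background.

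Domain length varies widely among these genes and goes with the share of genes that hold a summit. The domains ran from 24.3 kb at Scx and 24.5 kb at Tgfb1 over 28.8 kb at Tgfb3 and 55.3 kb at Egr1 to 259 kb at Egr2, 297 kb at Mkx and 604 kb at Tgfb2, and the median over all genes was 70.0 kb. Of the 4 genes with a domain under 100 kb, 1 had a Tbx4 summit and 0 had a Hoxc10 summit, against 8.43% and 1.28% of all genes of that class. Of the 3 genes with a longer domain, 1 had summits of both factors, where 32.0% of such genes had a Tbx4 and 16.0% a Hoxc10 summit. This split by length was chosen after the values were seen.

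The highest-scoring of these Tbx4 summits lay next to Scx. The gene spans 76457411 to 76459468 of chromosome 15 and sits wholly inside Bop1, which encodes a protein of ribosome assembly and spans 76452988 to 76477249. The Tbx4 summit at 76462315 was 2847 bp beyond the upper end of Scx, within Bop1, and Scx was the gene with the nearest end. It scored 31.67, and 105 of the 4780 Tbx4 summits scored higher. The neighbours Mroh1 and Hsf1 held no summit in their own domains. The summit is counted for Bop1 too. Where a host gene is taken to end the domain, or where a summit goes to the gene it lies in, Scx has 0 Tbx4 summits.

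Around Scx the summit stood alone. The next Tbx4 summit below the domain was 1900 kb away, and the next above lay 212 kb from Scx, inside Foxh1, which encodes a partner of activated Smads. That summit scored 1.63, among the lowest of its list, with 4493 summits higher. The nearest Hoxc10 summit was 639 kb below Scx, inside Zc3h3, with a score of 19.04. A span of 2119 kb between listed Tbx4 summits thus held 1 listed summit, at Scx, and 14 numbered peaks that are not in the list.

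**Figure D1:**
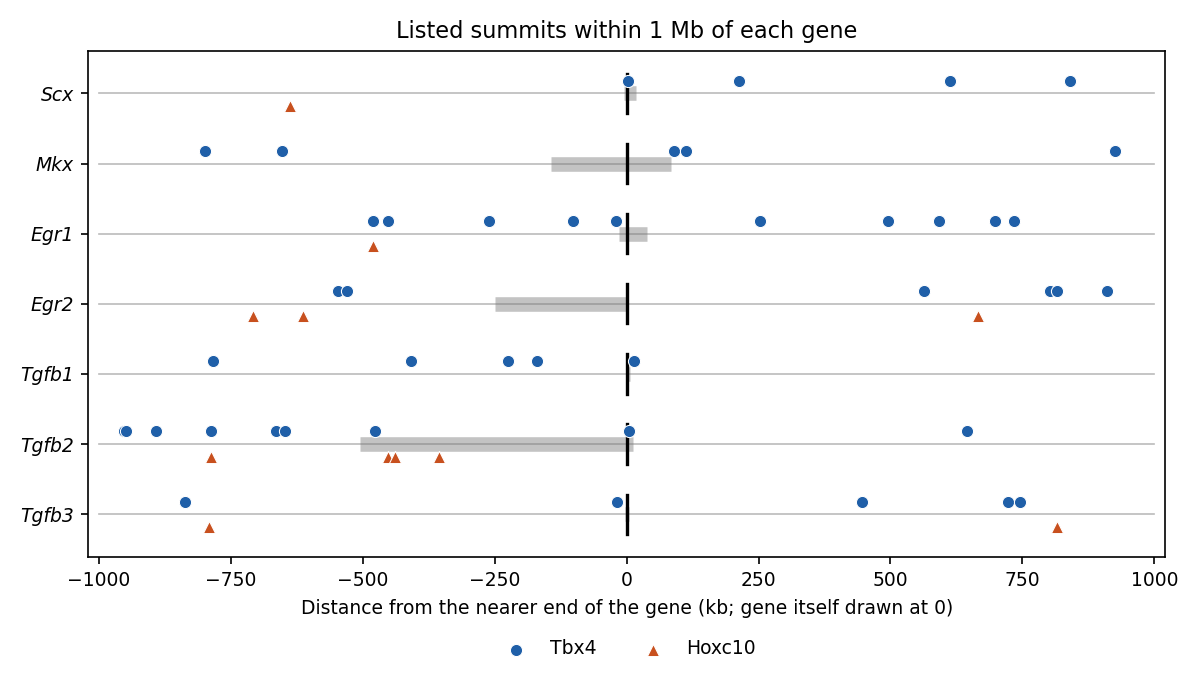
Listed summits of Tbx4 (circles) and Hoxc10 (triangles) within 1 Mb of each gene, by distance in kb from the nearer end of the gene, which is drawn as a black bar at 0. Grey bars show the domain, and summits lie over it only for Scx (1 Tbx4) and Tgfb2 (2 Tbx4 and 3 Hoxc10); the domains of Tgfb1 and Tgfb3 are too short to stand out.

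Tgfb2 had the most summits of the set. The gene spans 186622787 to 186709697 of chromosome 1, and its domain reaches 505 kb below the gene to Lyplal1, which encodes a lysophospholipase-like protein, and 11.4 kb above it to Rrp15, which encodes a ribosome assembly factor. No summit lay inside the gene. A Tbx4 summit at 186713728 lay 4031 bp beyond the upper end, with a score of 2.94, which 61.5% of the Tbx4 list exceeded. RefSeq's promoter table places a start of Tgfb2 at 186705989 on the minus strand, inside the gene's span rather than at its upper end. This Tbx4 summit lay at -7.74 kb, upstream of that start, and is shared with Rrp15.

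The other 4 summits of Tgfb2 lay far away, in the gene desert on the Lyplal1 side, downstream of Tgfb2 on its strand. A Tbx4 summit at 186145659, 477 kb from Tgfb2, scored 4.46, with 39.4% of the list higher. It lay inside Gm35201, a long noncoding RNA gene, 28.3 kb from Lyplal1. The Hoxc10 summits stood at 186169836, 186182863 and 186267412, or 453, 440 and 355 kb from Tgfb2. Their scores were 2.72, 15.53 and 29.55, and they rose with nearness to Tgfb2 and away from Lyplal1. The lowest was under 94.9% of the Hoxc10 list, whereas the highest was exceeded by 76 of the 1614 summits, or 4.71%.

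None of these summits had a partner of the other factor close by. The smallest distance, between the Tbx4 summit at 477 kb and the Hoxc10 summit at 453 kb, was 24.2 kb. The other 2 Hoxc10 summits were 37.2 and 122 kb from a Tbx4 summit, and the Tbx4 summit near the upper end of Tgfb2 was 446 kb from a Hoxc10 summit. The 3 Hoxc10 summits and 1 of the Tbx4 summits are shared with Lyplal1, whose end is nearer to each of them than that of Tgfb2. When each summit went to the nearest gene, Tgfb2 kept 1 Tbx4 and 0 Hoxc10 summits.

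**Figure D2:**
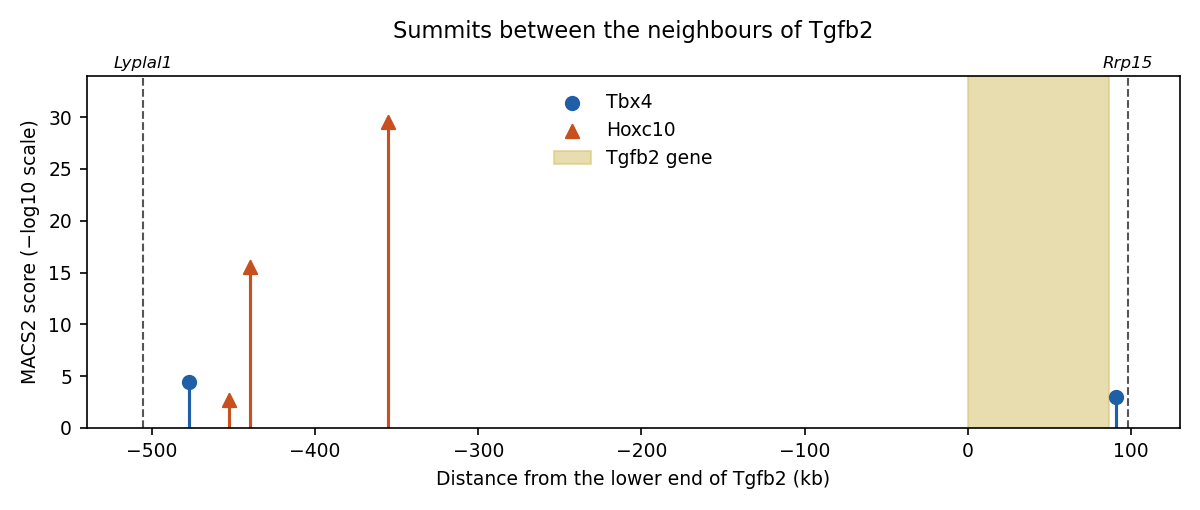
MACS2 scores (−log10 scale) of the summits in the domain of Tgfb2, by distance in kb from the lower end of the gene; circles are Tbx4, triangles Hoxc10, the band is the gene and dashed lines the neighbours. The Hoxc10 summits of 2.72, 15.53 and 29.55 lie 453, 440 and 355 kb from the gene, and the Tbx4 summit of 2.94 just above it.

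Beyond Lyplal1 the desert went on to hold summits. Within 1 Mb of Tgfb2 there were 10 Tbx4 and 4 Hoxc10 summits, more than at 91.0% and 92.4% of all genes, with 8 and 4 of them on the Lyplal1 side. The medians over all genes were 4 and 1. A co-bound pair lay 788 kb below Tgfb2, outside its domain, between Slc30a10 and Lyplal1. Its Tbx4 summit at 185834440 scored 13.57 and its Hoxc10 summit, 28 bp away, 11.45.

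The promoter of Tgfb2 is printed because a Tbx4 summit lay upstream of it, although not in it; no sequence under the summits was used here. The 250 bases before the RefSeq start lie at chr1:186705990-186706239 on the minus strand of GRCm38.p6, the same build as mm10. They fall inside the span given for the gene. The capitals mark TATAAA, 31 to 26 bases before the start, which 7.59% of 32851 promoters hold on that strand. TATAAA was looked for only after the sequences were seen. These 250 bases hold neither AGGTGT, letters of the T-box motif found in 11.8% of such promoters, nor TTTATNG, letters of a posterior Hox motif found in 9.81%, on either strand.
Tgfb2: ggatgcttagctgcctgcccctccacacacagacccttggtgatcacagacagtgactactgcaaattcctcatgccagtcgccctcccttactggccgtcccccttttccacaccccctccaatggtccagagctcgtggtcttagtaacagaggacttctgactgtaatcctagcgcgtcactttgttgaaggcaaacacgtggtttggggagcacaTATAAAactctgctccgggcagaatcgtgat

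Tgfb1 and Tgfb3 had no summit in their short domains. Tgfb1 encodes the ligand best known from platelets, immune cells and fibrosis, and spans 25687002 to 25705077 of chromosome 7, 0.439 kb from B9d2 and 6.03 kb from Ccdc97. The nearest Tbx4 summit was 13.9 kb above the gene, inside Ccdc97, 71 bp from the upper end of that gene, which RefSeq gives as its start. It scored 8.12, with 18.4% of the list higher. No Hoxc10 summit lay within 1 Mb of Tgfb1, and the nearest was 1296 kb away.

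Tgfb3, which encodes the ligand needed for palate fusion and, with Tgfb2, for tendon progenitors, spans 86056743 to 86079041 of chromosome 12. Its nearest Tbx4 summit was 19.2 kb below it, inside Ttll5, with a score of 3.67. Its other neighbour, Ift43, a gene of transport in cilia, had none. The Hoxc10 summits on either side were 792 and 816 kb away, with scores of 9.16 and 12.24. For each of the 3 ligand genes a Tbx4 summit was thus the nearest of both factors, at 4.03, 13.9 and 19.2 kb, against a median of 204 kb over all genes. Of all genes, 10.5%, 13.8% and 15.3% had a nearer one. This was not particular to the ligand genes. Scx and Egr1 lay 2.85 and 20.6 kb from a Tbx4 summit, and Tbx4 was the nearer factor at all 7 members.

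Egr1 and Egr2 encode paralogous factors, and neither had a summit in its domain. Egr1 spans 34861207 to 34864956 of chromosome 18. Its nearest Tbx4 summit lay 20.6 kb below it, 24 bp outside the lower end of Reep2, a gene for a protein that shapes the endoplasmic reticulum, with a score of 3.67. Etf1, a gene for a factor that ends translation, bounds the domain above and had no summit. Within 1 Mb there were 10 Tbx4 summits, as many as for Tgfb2 and more than at 91.0% of all genes. Their scores ran from 2.94 to 11.3, and 8 lay inside genes other than Egr1. The highest of them, 481 kb below Egr1 and nearest to Reep5, had the lone Hoxc10 summit of that window, of score 12.24, at a distance of 211 bp, just past the 200 bp used here.

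Egr2 was the member farthest from any Tbx4 summit. It spans 67534469 to 67542188 of chromosome 10 with a stretch of 249 kb free of protein-coding genes below it, and is best known for its roles in hindbrain segments and Schwann cells. Its neighbours Nrbf2 and Ado had no summit in their domains either. The nearest Tbx4 summit was 530 kb away, and 74.2% of all genes had a nearer one; the nearest Hoxc10 summit was 614 kb away. Within 1 Mb stood 6 Tbx4 summits of scores up to 7.14 and 3 Hoxc10 summits of scores up to 7.02. None of them was co-bound. Of the summits above the gene, 1 of each factor lay inside Arid5b, 563 and 666 kb from Egr2.

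Mkx spans 6934966 to 7004779 of chromosome 18 and stands between Rab18, 143 kb below it, and Armc4, 83.5 kb above it. Its domain of 297 kb, longer than those of 84.2% of all genes, held no listed summit. The 2 nearest Tbx4 summits lay inside Armc4, which encodes a protein of cilia, at 89.9 and 113 kb from Mkx, with scores of 8.12 and 2.26. No Hoxc10 summit lay within 1 Mb, and the nearest was 1428 kb away. The stretch of 814 kb between the listed Tbx4 summits on either side of Mkx held 9 numbered peaks that are not in the list.

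**Figure D3:**
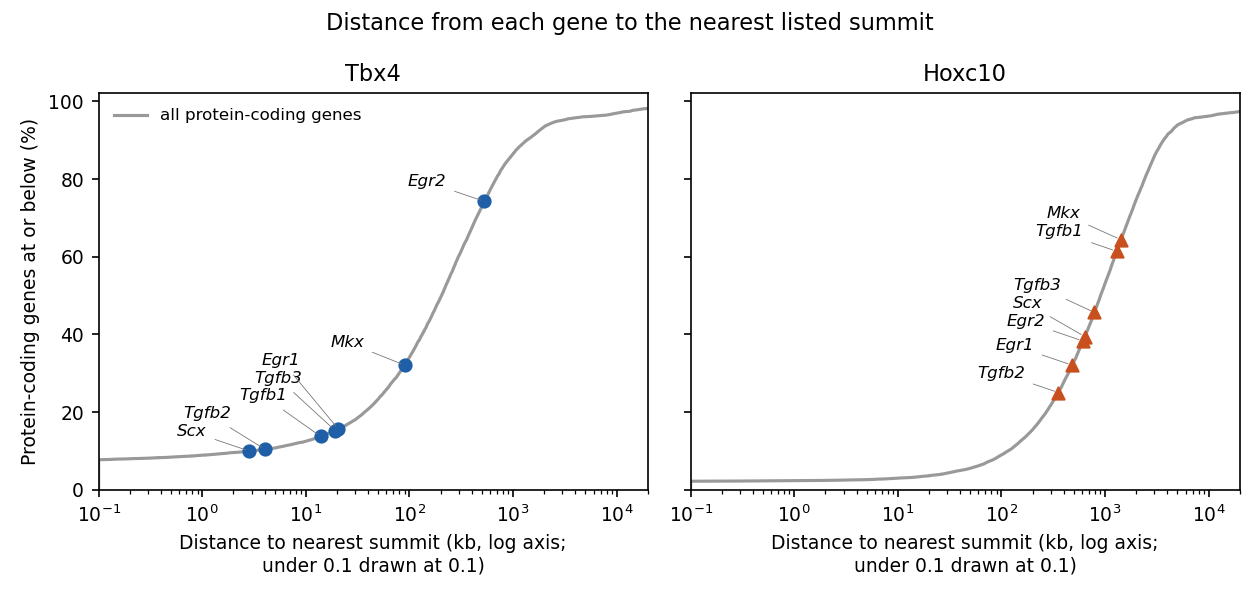
Share of all protein-coding genes (%) at or below a given distance to the nearest listed summit (kb, log axis), with the 7 genes marked on the curve, for Tbx4 on the left and Hoxc10 on the right. Scx and Tgfb2 lie within 5 kb of a Tbx4 summit, Egr2 lies 530 kb from one, and the Hoxc10 distances run from 355 kb at Tgfb2 to 1428 kb at Mkx.

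The order of the 7 genes differed between the factors. For Tbx4 it ran from Scx over Tgfb2, Tgfb1, Tgfb3, Egr1 and Mkx to Egr2. For Hoxc10 it ran from Tgfb2 over Egr1, Egr2, Scx, Tgfb3 and Tgfb1 to Mkx, and no member had a Hoxc10 summit within 100 kb. The nearest Tbx4 summit was closer than the nearest Hoxc10 summit at all 7 genes, with the smallest gap at Egr2, where the distances were 530 and 614 kb. The Tbx4 list is the longer one, and the medians over all genes were 204 and 906 kb.

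Other genes of tendon and of the TGF-beta pathway were counted in the same way, from 6 lists of 78 genes in all that hold none of the 7. Tbx4 summits were found at 38 of them, or 48.7%, Hoxc10 summits at 23, or 29.5%, and a co-bound pair at 10, where 17.6%, 7.02% and 2.71% of all genes had one. No share of co-bound genes was computed by domain length. The median domain of these genes was 155 kb, longer than that of all genes, and 32.0% and 16.0% of genes with domains of 100 kb or more had a Tbx4 and a Hoxc10 summit.

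Among the partners of the ligands, 3 of 5 receptor genes had Tbx4 summits and 1 had Hoxc10 summits. Of all genes 17.6% and 7.02% had one, and of genes with domains of 100 kb or more 32.0% and 16.0%. The type I receptor gene Tgfbr1 had 2 summits of each factor. One pair was co-bound 67 bp apart, 23.0 kb from the gene, with scores of 2.26 for Tbx4 and 12.24 for Hoxc10. The type II receptor gene Tgfbr2 had 1 Tbx4 summit 73.8 kb away, with a score of 3.67, and the coreceptor gene Tgfbr3 had 2, the higher of which, at 6.19, lay inside the gene. Of 12 genes for latency and activation of the ligands, 6 had Tbx4 and 4 had Hoxc10 summits, or 50% and 33.3%. The median domain of the 12 was 172 kb. Itgav, which encodes a subunit of integrins that release active TGF-beta, had 1 Tbx4 summit of 10.21 and 2 Hoxc10 summits. Its Tbx4 summit was co-bound with the Hoxc10 summit of 13.04 at a distance of 104 bp. Fbn2, a fibrillin of embryonic matrix, had 4 Tbx4 summits, the highest of 35.95 inside the gene, and Fbn1 had 1 of each factor inside the gene.

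Downstream of the receptors, 4 of 13 genes for Smads, inhibitors and targets had Tbx4 summits and 1 had Hoxc10 summits. These are 30.8% and 7.69%, where 17.6% and 7.02% of all genes had one. The median domain of the 13 was 144 kb, and 32.0% and 16.0% of genes with domains of 100 kb or more had one. Smad2, a transducer of the ligands, had 3 Tbx4 summits, the highest of 47.87 at 137 kb from the gene. The matrix gene Tgfbi, named for its induction by TGF-beta, had 2 Tbx4 summits. The inhibitory Smad7 and the shared partner Smad4 had none of either factor. Tgif1, a homeodomain repressor that binds Smad2, had 0 Tbx4 and 2 Hoxc10 summits, both inside the gene. The summit at 70849956 of chromosome 17, with a score of 10.67, lay in a RefSeq promoter window, at position -166 from the start at 70849790. RefSeq gives other starts of Tgif1 too, and this summit lay 1254 bp downstream of the start at 70851210.

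The promoter of Tgif1 is shown because no other promoter of these genes that the table gives held a summit in its window of 250 bases before to 50 after the start; the table gives promoters for 3 of the 7 members, Egr2, Tgfb1 and Tgfb2, and for 63 of the 98 genes in all lists. The 250 bases before the start at 70849790 lie at chr17:70849791-70850040 on the minus strand of GRCm38.p6. The capitals mark the Hoxc10 summit with 20 bases to each side. Neither AGGTGT nor TTTATNG was found in the 250 bases on either strand.
Tgif1: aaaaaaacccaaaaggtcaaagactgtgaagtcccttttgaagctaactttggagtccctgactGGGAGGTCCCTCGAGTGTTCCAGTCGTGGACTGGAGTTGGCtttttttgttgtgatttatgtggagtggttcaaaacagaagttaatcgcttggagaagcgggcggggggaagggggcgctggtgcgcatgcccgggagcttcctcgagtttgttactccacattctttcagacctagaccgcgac

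Of 24 tendon matrix genes 11 had Tbx4 and 8 had Hoxc10 summits. These are 45.8% and 33.3%, where 17.6% and 7.02% of all genes had one. The median domain of the 24 was 173 kb, and 32.0% and 16.0% of genes with domains of 100 kb or more had one. Col12a1, a collagen on the surface of fibrils, had 5 Tbx4 and 0 Hoxc10 summits, the highest of 38.86 at 754 kb from the gene. Dcn, which encodes the proteoglycan decorin, had 3 and 2, and Thbs2 had 2 and 2. A pair counted for Dcn was co-bound at 185 bp, but lay 431 kb from the gene. Its scores were 2.94 for Tbx4 and 3.26 for Hoxc10, with 2938 and 1450 summits higher in their lists. The collagen gene Col1a2 had 2 and 1. Its Tbx4 summit of 135.45, the highest at these 24 genes, lay 15.8 kb away, with 4 Tbx4 summits higher in the list. A Hoxc10 summit of 31.58 was co-bound with it at 13 bp. Fmod had 1 Tbx4 summit, of 50.96 at 95.6 kb. The late tendon marker Tnmd and the collagen gene Col1a1 were among the 12 with none of either factor. Of 14 genes listed as other regulators of tendon and connective tissue, 11 had Tbx4 and 8 had Hoxc10 summits, or 78.6% and 57.1%. The median domain of the 14, 509 kb, was the longest of the lists. The most summits stood at Sox9, a factor of cartilage and of the progenitors at tendon attachments, Tcf4, and Osr1, a factor of connective tissue. These had 17, 14 and 11 Tbx4 and 7, 4 and 4 Hoxc10 summits. Tcf4 is here the symbol of an E protein gene on chromosome 18. Tcf7l2, a separate gene of the same list on chromosome 19, had 5 and 4.

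Egr1 and Egr2 are immediate early genes, and a list of 10 genes held their paralogues, their corepressors and other immediate early genes. Tbx4 summits were found at 3 of the 10 and Hoxc10 summits at 1, where 17.6% and 7.02% of all genes had one. The paralogues Egr3 and Egr4 were among the 7 with neither factor. Egr1 and Egr2, which are not in this list, had none either, as did 80.5% of all genes. Jun, a subunit of AP-1, had 1 Tbx4 and 4 Hoxc10 summits, the highest Hoxc10 summit of 14.69 at 227 kb. Nab1, a corepressor of Egr proteins, had 2 Tbx4 summits, and Ier2 had 1.

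Of 20 marker genes of other cell types of the bud, Tbx4 summits were found at 5 and Hoxc10 summits at 2. These are 25% and 10%, where 17.6% and 7.02% of all genes had one. The median domain of the marker genes was 132 kb, and of genes with domains of 100 kb or more 32.0% and 16.0% had one. The marker genes with a summit were Pax3 of muscle precursors with 1 and 1, and Epcam and Cdh1 of ectoderm with 2 and 1 Tbx4 summits. The others were Cdh5 of endothelium with 3 Tbx4 summits and Ptprc of blood with 2 and 1. The summits of Cdh5 lay 317, 788 and 902 kb from the gene. Those of Ptprc lay 18.3 and 691 kb away for Tbx4 and 590 kb for Hoxc10. Met, Myf5, Myod1, Krt5, Krt14, Kdr and Gata1 were among the 15 with none. Their part in the results above was not tested.

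**Figure D4:**
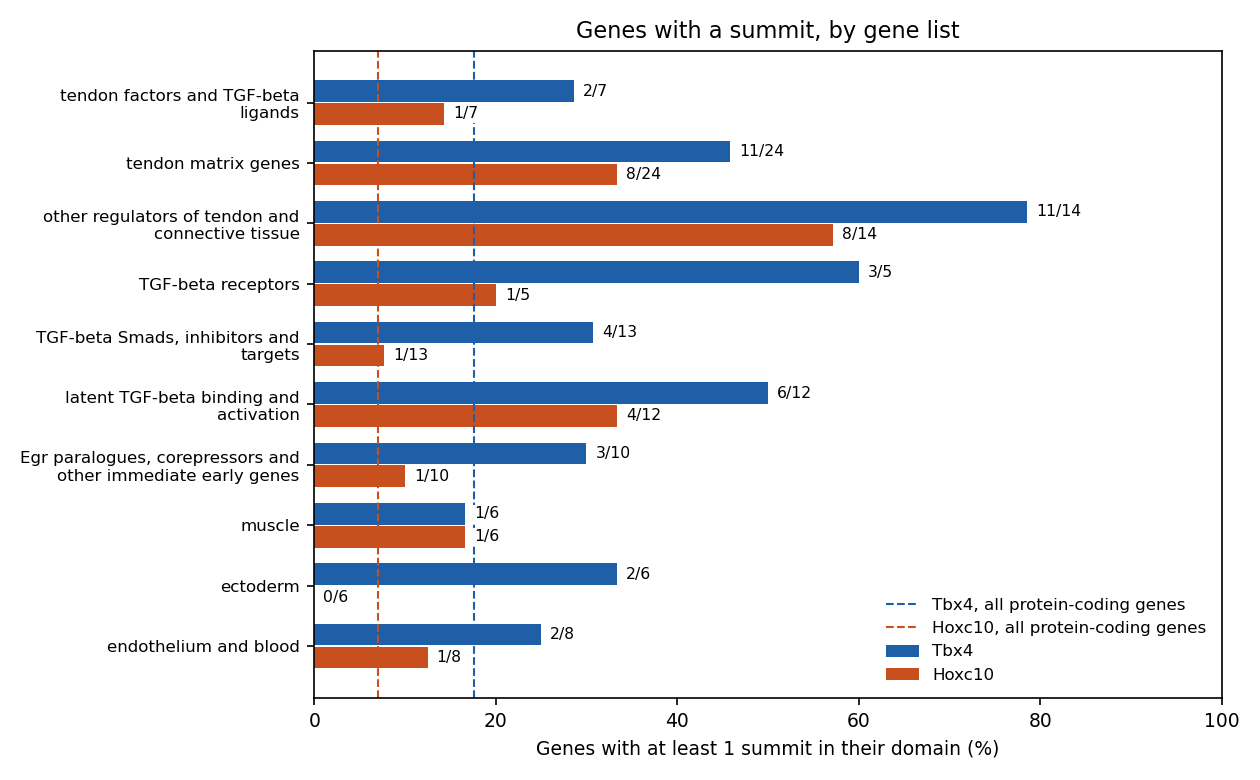
Percent of genes with at least 1 Tbx4 (upper bar) or Hoxc10 (lower bar) summit in their domain, for the 7 genes and 9 gene lists, with the counts beside the bars; the last 3 lists are markers of other cell types. Dashed lines show all protein-coding genes, 17.6% for Tbx4 and 7.02% for Hoxc10, and the bars of the 7 genes stand at 2 and 1 of 7.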

How the data were processed

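Per the submitters' processing notes, Bowtie2 2.2.6, MACS2 2.1.1.20160309 and HOMER were used on build mm10. The authors deposited 1 list of summits a sample, with a score on a −log10 scale beside each, whether of a p-value or a q-value not given in the sources used here. No control library is named in these sources. Names of peaks carry running numbers, which rise with position on all 21 chromosomes in both lists.

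Genes came from RefSeq's GRCm38.p6 table. A gene that wholly holds another was stepped over when its domain was built, a gene overlapping 1 end stopped it there, and genes inside were ignored. A summit between genes counts for both. Counts and distances were computed with Python 3.11.15 and pandas 2.3.3, and checked on simulated summits. The 98 list genes were all matched, 1 by a synonym. Named are the 7 members, the genes ending their domains, and the 3 genes of each list with the most summits; other list genes were named after their values were seen. The members and lists were chosen with earlier results of these data known.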

Additional observations from a re-analysis of the deposited data

How the results depend on the processing

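The totals of 3 Tbx4, 3 Hoxc10 and 0 co-bound summits in the 7 domains were recomputed under 9 other settings, and the co-bound count also within 50, 500 and 1000 bp. The Hoxc10 total fell to 0 with domains of at most 100 kb, with 5 kb around each gene, with the next gene of any type ending the domain and with the nearest gene only. The Tbx4 total was 1 with the nearest gene only, and 1 with the Tbx4 list cut towards the length of the Hoxc10 list. It was 2 or 3 otherwise. That cut kept 1876 Tbx4 summits, since tied scores were not split. The co-bound total was 0 in every setting, and Mkx, Egr1, Egr2, Tgfb1 and Tgfb3 had 0 summits in every setting. Most settings only shorten the domains or thin the lists, so that a count of 0 could not rise in them. Distances of 500 and 1000 bp could not raise the co-bound total, since the closest partners in these domains stood 24.2 kb apart. The 5 kb flanks did pass a domain end at Scx, Egr2, Tgfb1 and Tgfb3, and added no summit there. The background ranged from 8.62 to 17.2% of genes for Tbx4 and from 2.64 to 7.02% for Hoxc10. Of 180 recomputed list counts 57 moved by over 1.5 times or to 0. With 5 kb around each gene, the tendon matrix genes with Tbx4 and Hoxc10 summits fell from 11 and 8 to 3 and 0. Those of the other regulators fell from 11 and 8 to 8 and 3. In that setting 10.8% and 2.64% of all genes had a summit. With the nearest gene only, the tendon matrix counts were 5 and 4. Leaving out a replicate was not possible with 1 sample a group, and depth, which no file gives, limits what a count of 0 can show.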
